A study of Mus musculus with 20 samples.

Results

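The genes described here are the protocadherins of the mouse as measured in 5 sorted cell populations of the neonatal subventricular zone (SVZ). Members were every gene whose symbol was Pcdh followed only by lower-case letters and digits, which gave 71 of the 45705 genes listed, carrying 68 distinct symbols. Of these, 15 were Pcdha genes, 22 were Pcdhb genes and 22 were Pcdhg genes, and the other 12 lie outside the clusters. The cells came from Swiss Webster pups at postnatal day 5, whose periventricular zone was dissociated, stained for CD133, LeX (CD15), CD140a and NG2, and sorted into neural stem cells (NSCs), BNAP/GRP1, GRP2/MP3, GRP3 and PFMP. BNAP/GRP1 and GRP2/MP3 are each a pair of progenitor types that share an antigenic profile. Each population was sequenced in 4 batches, 20 libraries in all, and the pups of a litter, males and females together, were analysed as a pool. No transgene or treatment is named in the labels.

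Protocadherins are cell-surface adhesion proteins of the cadherin superfamily. The clustered genes (Pcdha, Pcdhb, Pcdhg) lie side by side on 1 chromosome, and a single neuron uses only some of them. In the Pcdha and Pcdhg clusters each variable first exon is spliced to constant exons shared by the whole cluster, whereas each Pcdhb gene stands alone. The genes outside the clusters include the delta-1 group (*Pcdh1*, *Pcdh7*, *Pcdh9*, *Pcdh11x*), the delta-2 group (*Pcdh8*, *Pcdh10*, *Pcdh17*, *Pcdh18*, *Pcdh19*) and *Pcdh12*, *Pcdh15* and *Pcdh20*. Among cells of the brain, *Pcdh15* and *Pcdh9* are known for their expression in oligodendrocyte precursor cells (OPCs).

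Values are RPKM, reads per kilobase of transcript and per 1e6 mapped reads, so levels of different genes are compared per length. The 20 libraries listed between 20116 and 39689 genes above 0. The batch 3 libraries stood apart in every population: 4 lung epithelium markers summed to 854 to 976 RPKM, 3 erythroid markers to 140600 to 156200 RPKM, 7 microglia markers to 1528 to 1718 RPKM and 6 OPC markers to 2.72 to 14.7 RPKM. Within batch 3 the OPC markers summed to 13.8 RPKM in GRP3 and 14.7 RPKM in PFMP, and to 2.72 to 3.59 RPKM in the other populations. There 6 ependymal markers summed to 1221 RPKM in NSCs and to 4.81 to 6.89 RPKM in the progenitors, while the microglia markers were highest in GRP3, at 1718 RPKM. Whether these 5 libraries hold the populations their labels name was not tested, and batch 3 values are those of libraries so labelled. In the other batches the OPC markers summed to at least 633 RPKM in GRP3 and 301 RPKM in PFMP, and to at most 28.4 RPKM in NSCs, 101 RPKM in BNAP/GRP1 and 147 RPKM in GRP2/MP3. The OPC markers were *Pdgfra*, *Cspg4*, *Olig1*, *Olig2*, *Sox10* and *Gpr17*. Of these, *Pdgfra* and *Cspg4* encode the sorting antigens CD140a and NG2, so the sort itself sets part of this difference. The 6 ependymal markers, cells that the NSC label does not name, summed to 1221 to 14030 RPKM in NSCs and to at most 523 RPKM in the progenitors. Outside batch 3 the 8 NSC and astroglia markers summed to 3944 to 5410 RPKM in NSCs and 3549 to 15110 RPKM in GRP3, so they did not set NSCs apart, and the microglia markers summed to 95.7 to 3958 RPKM in BNAP/GRP1 and 326 to 5275 RPKM in GRP2/MP3, against at most 60.8 RPKM in the rest. The BNAP/GRP1 library of batch 4 had a median of 8.3 RPKM over all genes, against 0 to 2.02 RPKM in the other 19 libraries. Results that rest on batch 3 are therefore given with and without it.

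*Pcdh11x*, *Pcdh15* and *Pcdh9* reached the highest levels of any protocadherin outside the clusters, and they did so in GRP3 and PFMP. In the fit of all 4 batches without a batch term, no protocadherin passed the test against NSCs in any progenitor population. When batch was a term, *Pcdh11x* and *Pcdh15* were higher in GRP3, by 3.36 and 3.25 on the log2(RPKM + 1) scale. Once batch 3 was left out, *Pcdh11x*, *Pcdh15* and *Pcdh9* were higher in GRP3 than in NSCs, by 4.53, 4.30 and 3.57, and *Pcdh11x* and *Pcdh9* were higher in PFMP. In a bulk library, fewer cells of a type and less RNA per cell cannot be told apart.

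*Pcdh11x*, a delta-1 gene (GRCm38 chrX:120290259-120910619, plus strand), measured 56.2, 113, 0.269 and 28.6 RPKM in the GRP3 libraries of batches 1 to 4 and 112, 28.1, 0.0923 and 23.4 RPKM in the PFMP libraries. In NSCs it measured 2.21, 0.539, 0.398 and 2.16 RPKM, in BNAP/GRP1 2.26, 1.8, 0.0083 and 12.1 RPKM and in GRP2/MP3 1.25, 2.75, 0 and 6.88 RPKM. Outside batch 3 the lowest GRP3 or PFMP library lay above the highest library of the other 3 populations, and within batch 3 all 5 values were at or below 0.398 RPKM. The estimate for GRP3 against NSCs was 3.36 (SE 1.29, limma adjusted p = 0.511) over all batches, 3.36 (SE 0.854, limma adjusted p = 0.0393) with batch as a term, and 4.53 (SE 0.809, limma adjusted p = 0.00694) without batch 3. For PFMP the corresponding estimates were 2.99 (SE 1.29, limma adjusted p = 0.682), 2.99 (SE 0.854, limma adjusted p = 0.0726) and 4.11 (SE 0.809, limma adjusted p = 0.0133).

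*Pcdh15*, which forms the tip link of hair-cell stereocilia together with *Cdh23* (GRCm38 chr10:73099342-74649737, plus strand), measured 101, 111, 0.223 and 72.6 RPKM in GRP3 and 94.9, 72.3, 0.219 and 19.5 RPKM in PFMP. The NSC libraries held 3.39, 1.15, 0.141 and 10.6 RPKM, the BNAP/GRP1 libraries 3.07, 11.9, 0 and 53.3 RPKM and the GRP2/MP3 libraries 3.35, 2.36, 0.00936 and 11.7 RPKM. The BNAP/GRP1 library of batch 4 overlapped the GRP3 and PFMP range, and all other libraries of BNAP/GRP1, GRP2/MP3 and NSCs lay below every GRP3 and PFMP library outside batch 3. The estimate for GRP3 against NSCs was 3.25 (SE 1.5, limma adjusted p = 0.82), 3.25 (SE 0.849, limma adjusted p = 0.0467) with batch as a term, and 4.30 (SE 0.926, limma adjusted p = 0.0245) without batch 3. For PFMP it was 2.61 (SE 1.5, limma adjusted p = 1), and the lowest limma adjusted p over all alternatives was 0.0556.

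*Pcdh9*, a delta-1 gene (GRCm38 chr14:93013410-93890679, minus strand), measured 54.8, 62.6, 0.0564 and 46.9 RPKM in GRP3 and 51.1, 38.7, 0.297 and 63.3 RPKM in PFMP. It measured 3.37, 1.77, 0.334 and 7.43 RPKM in NSCs, 5.18, 13.4, 0.385 and 20.7 RPKM in BNAP/GRP1 and 1.7, 3.74, 0.114 and 29.2 RPKM in GRP2/MP3. As for *Pcdh11x*, the GRP3 and PFMP libraries outside batch 3 lay above all libraries of the other 3 populations. Without batch 3 the estimates were 3.57 (SE 0.798, limma adjusted p = 0.0302) for GRP3 and 3.45 (SE 0.798, limma adjusted p = 0.0362) for PFMP, and over all batches 2.59 (SE 1.37, limma adjusted p = 1) and 2.58 (SE 1.37, limma adjusted p = 1). Over all batches with batch as a term neither passed (GRP3: SE 0.694, limma adjusted p = 0.0545, PFMP: SE 0.694, limma adjusted p = 0.0534).

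**Figure D1:**
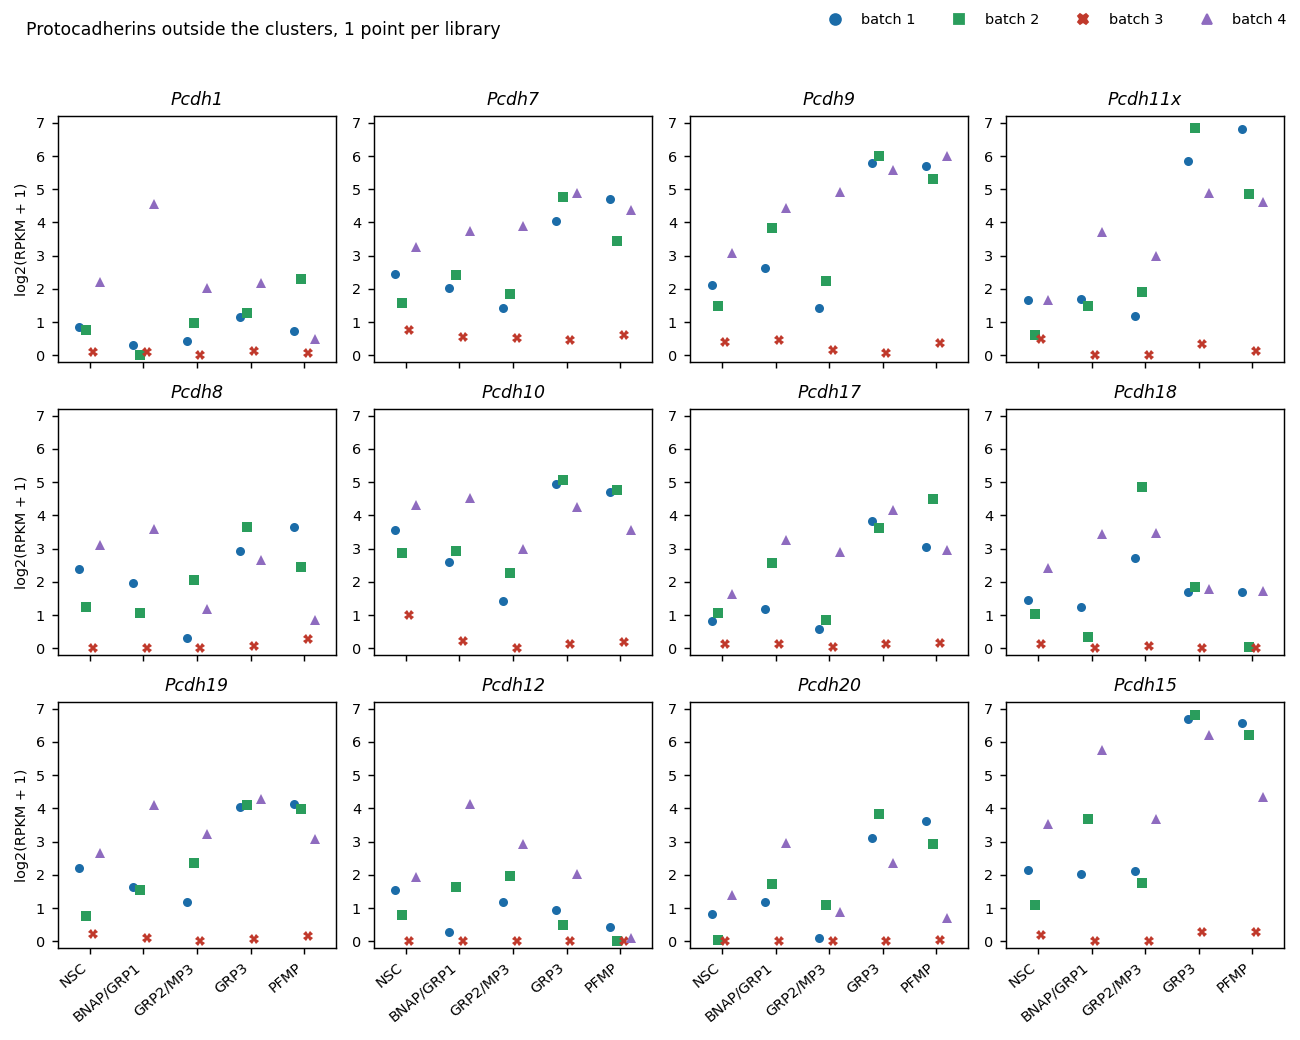
Level of each of the 12 protocadherins outside the clusters, as log2(RPKM + 1) on the vertical axis, in the 5 populations on the horizontal axis, where each point is 1 library and its colour and shape give the batch. *Pcdh11x* and *Pcdh9* sit highest in GRP3 and PFMP in batches 1, 2 and 4, as does *Pcdh15* but for the BNAP/GRP1 library of batch 4, and the batch 3 points lie near 0 in every population.

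The remaining delta-1 genes were lower. *Pcdh7* (GRCm38 chr5:57717967-58133230, plus strand) measured 15.5, 26.5, 0.374 and 28.9 RPKM in GRP3, 25, 9.84, 0.538 and 19.9 RPKM in PFMP and 4.44, 1.98, 0.716 and 8.69 RPKM in NSCs. Its GRP3 and PFMP libraries outside batch 3 all exceeded the NSC libraries, but it reached 12.4 and 13.8 RPKM in the batch 4 libraries of BNAP/GRP1 and GRP2/MP3, above the lowest PFMP library. *Pcdh1* measured 1.22, 1.41, 0.0874 and 3.55 RPKM in GRP3 and 0.815, 0.71, 0.0659 and 3.66 RPKM in NSCs, which overlapped, and its highest value was the 22.3 RPKM of the BNAP/GRP1 library of batch 4.

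Among the delta-2 genes, *Pcdh17*, which takes part in presynaptic assembly (GRCm38 chr14:84443563-84539002, plus strand), measured 13.4, 11.2, 0.0928 and 17.1 RPKM in GRP3 and 7.31, 21.4, 0.12 and 6.78 RPKM in PFMP, against 0.788, 1.11, 0.102 and 2.09 RPKM in NSCs. *Pcdh19*, an X-linked gene mutated in a familial epilepsy (GRCm38 chrX:133582860-133688987, minus strand), measured 15.3, 16.3, 0.0455 and 18.4 RPKM in GRP3 and 16.4, 14.8, 0.125 and 7.5 RPKM in PFMP, against 3.61, 0.71, 0.162 and 5.31 RPKM in NSCs. For both genes every GRP3 and PFMP library outside batch 3 was above every NSC library, and neither passed the test under any alternative. Over all batches the GRP3 difference was 2.02 for *Pcdh17* (SE 0.983, limma adjusted p = 0.904) and 1.66 for *Pcdh19* (SE 1.08, limma adjusted p = 1). The lowest limma adjusted p over all alternatives in GRP3 was 0.0521 and 0.156. In batches 1 and 2 BNAP/GRP1 and GRP2/MP3 lay below GRP3 and PFMP. In batch 4 *Pcdh17* measured 8.54 RPKM in BNAP/GRP1 and 6.48 RPKM in GRP2/MP3, and *Pcdh19* 16.2 and 8.29 RPKM, so PFMP was exceeded by BNAP/GRP1 for both genes and by GRP2/MP3 for *Pcdh19*.

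*Pcdh10*, whose protein binds the WAVE complex subunit Nckap1 (GRCm38 chr3:45378398-45435623, plus strand), was the delta-2 gene with the highest level in NSCs, at 10.7, 6.37, 0.99 and 18.9 RPKM. In GRP3 it measured 29.6, 32.6, 0.0846 and 18 RPKM and in PFMP 25.2, 26.2, 0.141 and 10.8 RPKM, so both lay above the NSC library in batches 1 and 2 and below it in batches 3 and 4. BNAP/GRP1 held 5.087, 6.55, 0.1739 and 21.97 RPKM and GRP2/MP3 1.666, 3.844, 0.01646 and 7.015 RPKM, so BNAP/GRP1 was highest in batch 4. *Pcdh8* (GRCm38 chr14:79766775-79771312, minus strand) overlapped between GRP3, at 6.56, 11.5, 0.048 and 5.33 RPKM, and NSCs, at 4.2, 1.39, 0 and 7.64 RPKM. It measured 11.46, 4.448, 0.2113 and 0.7937 RPKM in PFMP, 2.891, 1.095, 0 and 11.14 RPKM in BNAP/GRP1 and 0.234, 3.16, 0 and 1.289 RPKM in GRP2/MP3. In batch 4 BNAP/GRP1 was thus highest for this gene too.

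*Pcdh18* was the delta-2 gene with a different order (GRCm38 chr3:49743296-49757325, minus strand). It measured 5.55, 27.8, 0.0445 and 10.2 RPKM in GRP2/MP3, above the other 4 populations of the same batch in batches 1, 2 and 4. NSCs held 1.75, 1.05, 0.0929 and 4.39 RPKM, BNAP/GRP1 1.37, 0.279, 0 and 9.93 RPKM and GRP3 2.21, 2.61, 0 and 2.42 RPKM. The difference between GRP2/MP3 and NSCs was 1.51 (SE 0.92, limma adjusted p = 1) and did not pass the test. Outside batch 3 the 5 pericyte markers summed to 330.3 to 7074 RPKM in GRP2/MP3 and to 2.87 to 163 RPKM in the other populations, and their part in the *Pcdh18* values was not tested.

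*Pcdh12*, a protocadherin of endothelial cells, measured 1.9, 0.739, 0 and 2.84 RPKM in NSCs, 1.26, 2.93, 0 and 6.58 RPKM in GRP2/MP3 and 0.22, 2.12, 0 and 16.7 RPKM in BNAP/GRP1, whose batch 4 library held the highest value. It measured 0.917, 0.408, 0 and 3.04 RPKM in GRP3 and 0.352, 0, 0 and 0.0673 RPKM in PFMP. Outside batch 3 the 6 endothelial markers summed to 42 to 219 RPKM in NSCs, 73 to 121 RPKM in GRP2/MP3, 7.9 to 59.3 RPKM in BNAP/GRP1, 4.66 to 15.2 RPKM in GRP3 and 5.27 to 12.9 RPKM in PFMP, and their part in the *Pcdh12* values was not tested. The difference between PFMP and NSCs was -0.94 (SE 0.799, limma adjusted p = 1). *Pcdh20* (GRCm38 chr14:88464743-88471396, minus strand) measured 7.58, 13.3, 0 and 4.13 RPKM in GRP3, 11.3, 6.55, 0.0263 and 0.638 RPKM in PFMP and 0.777, 0.0248, 0 and 1.62 RPKM in NSCs, so the PFMP library of batch 4 fell within the NSC range.

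Promoter sequence is shown for 4 of these genes, 3 whose GRP3 and PFMP libraries lay above NSCs outside batch 3 and *Pcdh18*, which was highest in GRP2/MP3. Each window runs from 250 bases before to 50 bases after a gene start in RefSeq (GRCm38.p6), at chr10:73821617-73821916 for *Pcdh15* (plus strand), chr14:93890620-93890919 for *Pcdh9* (minus strand), chr14:84443313-84443612 for *Pcdh17* (plus strand) and chr3:49757267-49757566 for *Pcdh18* (minus strand). The *Pcdh15* window lies inside the GENCODE gene, downstream of its first base. Windows were used for 9 of the 12 genes, and none was used for *Pcdh1*, *Pcdh11x* and *Pcdh12*. *Pcdh9* had 2 windows, of which the first by coordinate is printed. Capitals mark matches on either strand to 3 motifs, which did not overlap here: the E-box CAGCTG, the SOX and TCF core ACAAAG and the TATA box TATAAA.
Pcdh15: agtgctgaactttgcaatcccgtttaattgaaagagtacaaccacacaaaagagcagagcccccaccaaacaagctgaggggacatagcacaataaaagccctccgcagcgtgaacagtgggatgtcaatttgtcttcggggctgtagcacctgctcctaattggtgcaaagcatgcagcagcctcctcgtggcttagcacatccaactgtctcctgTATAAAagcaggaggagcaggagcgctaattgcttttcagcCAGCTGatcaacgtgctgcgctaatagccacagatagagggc
Pcdh9: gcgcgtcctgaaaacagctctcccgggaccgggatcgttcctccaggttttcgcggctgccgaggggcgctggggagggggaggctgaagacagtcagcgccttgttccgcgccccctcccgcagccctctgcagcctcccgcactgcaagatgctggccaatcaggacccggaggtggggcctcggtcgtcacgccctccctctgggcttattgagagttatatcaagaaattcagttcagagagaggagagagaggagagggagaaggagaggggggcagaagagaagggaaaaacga
Pcdh17: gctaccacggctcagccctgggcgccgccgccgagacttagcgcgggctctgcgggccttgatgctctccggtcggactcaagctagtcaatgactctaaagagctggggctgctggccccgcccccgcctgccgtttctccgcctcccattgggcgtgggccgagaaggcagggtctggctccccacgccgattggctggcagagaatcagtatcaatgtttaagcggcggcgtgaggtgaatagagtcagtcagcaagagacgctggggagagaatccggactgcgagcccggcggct
Pcdh18: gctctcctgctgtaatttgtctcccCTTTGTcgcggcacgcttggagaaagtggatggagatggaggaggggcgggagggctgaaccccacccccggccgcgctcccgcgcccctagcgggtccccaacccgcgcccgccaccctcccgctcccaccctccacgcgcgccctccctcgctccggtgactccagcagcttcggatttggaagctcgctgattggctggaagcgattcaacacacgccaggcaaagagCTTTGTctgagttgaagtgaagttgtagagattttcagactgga

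The *Pcdh15* window held 1 E-box, 1 TATA box and 8 CpG dinucleotides, beside a median of 7 CpG over all 32851 windows. The *Pcdh9* and *Pcdh17* windows held none of the 3 motifs and 19 and 26 CpG, more than in 71.9% and 83.1% of all windows. The *Pcdh18* window held 2 matches to the SOX and TCF core and 23 CpG. Of all windows, 16.3% held the E-box, 18.7% the SOX and TCF core and 13.6% the TATA box.

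Compared with NSCs over all batches, 0 of the 49 protocadherins that passed the filter on low values (1 RPKM or more in 4 or more libraries) passed the test in any population (limma, Benjamini-Hochberg adjusted p under 0.05 over 27614 genes). The share of all genes called was also low: 0.0109% higher and 1.04% lower in GRP3, 0.00362% and 1.14% in PFMP, 0% and 0.76% in BNAP/GRP1, 0% and 1.12% in GRP2/MP3, and 0.0217% and 1.96% for the mean of the 4 progenitors. At an unadjusted p under 0.05 limma gave 2 members higher in GRP3 (*Pcdh11x* and *Pcdh15*; 1.26% of all genes) and 1 in PFMP (*Pcdh11x*; 0.793%). It gave 0 in BNAP/GRP1 (1.87% of all genes), GRP2/MP3 (0.873%) and the mean of the 4 progenitors (0.916%). With batch as a term, 2 of 49 members were called higher in GRP3 (*Pcdh11x* and *Pcdh15*; 0.275% of all genes). The same fit called 0 in PFMP (0.185%), BNAP/GRP1 (0.0652%), GRP2/MP3 (0.174%) and the mean of the progenitors (0.225%).

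Without batch 3, 3 of 49 members were called higher in GRP3 (*Pcdh11x*, *Pcdh15* and *Pcdh9*; 0.315% of all genes), 2 in PFMP (*Pcdh11x* and *Pcdh9*; 0.228%) and 1 in the mean of the progenitors (*Pcdh11x*; 0.177%), and 0 in BNAP/GRP1 (0.116%) and GRP2/MP3 (0.297%). When a batch term was added as well, the same genes were called in GRP3 (0.525% of all genes) and PFMP (0.398%), *Pcdh9* joined *Pcdh11x* in the mean of the progenitors (0.344%), and 0 members were called in BNAP/GRP1 (0.214%) and GRP2/MP3 (0.503%). All of these genes lie outside the clusters. The 4 populations were compared with the same NSC libraries.

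**Figure D2:**
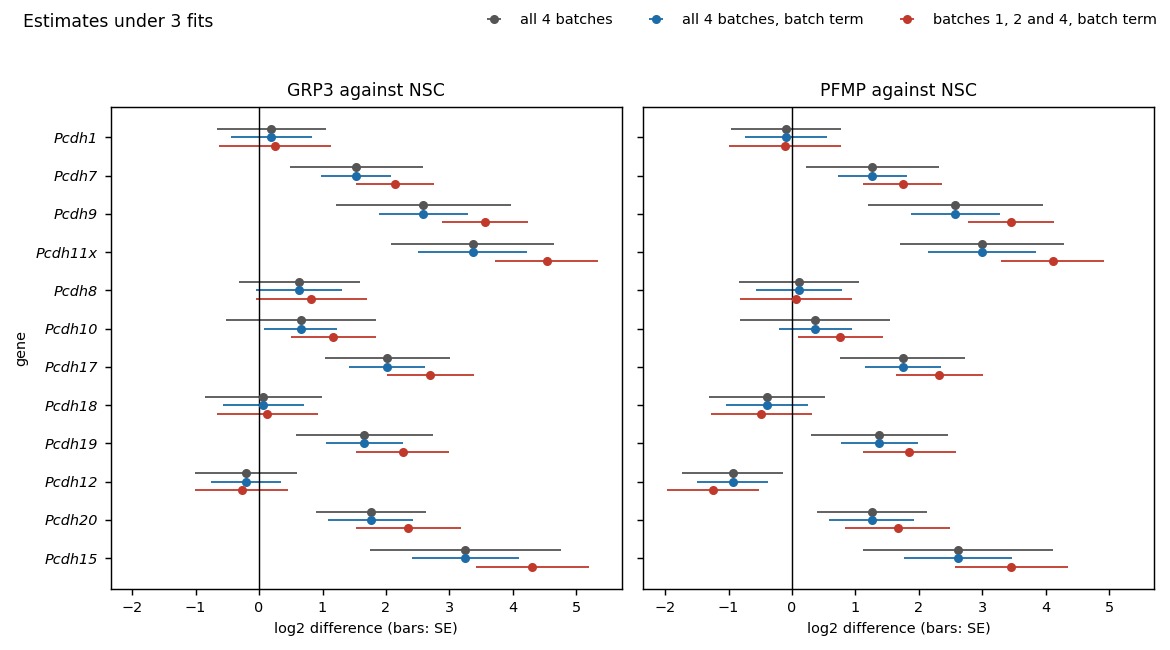
Estimated log2 difference from NSCs (horizontal axis, log2(RPKM + 1) scale, bars are SE) of the 12 protocadherins outside the clusters, for GRP3 and PFMP, in 3 fits marked by colour: all 4 batches, with batch as a term, and batches 1, 2 and 4 with batch as a term. The batch term shortens the bars, and leaving out batch 3 moves the *Pcdh11x* estimate in GRP3 from 3.36 to 4.53.

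As a group, the 12 genes outside the clusters had a median difference of 1.59 in GRP3 and 1.26 in PFMP, beside 0.05 and -0.20 over all genes tested. In BNAP/GRP1 and GRP2/MP3 the median was 0.42 and 0.16, beside 0.38 and -0.08. All 12 passed the filter. Within batches 1 to 4, 11, 11, 3 and 8 of the 12 were higher in GRP3 than in the NSC library, while 52.8%, 42.4%, 31.8% and 56.9% of all tested genes were. For PFMP the counts were 10, 10, 4 and 6, beside 47.8%, 42.3%, 32.3% and 27.1% of all tested genes.

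The summed RPKM of the 12 genes was 8.02, 22.9, 0.427 and 3.3 times that of the NSC library in GRP3, and 9.42, 12.9, 0.604 and 2.06 times in PFMP. In BNAP/GRP1 the ratios were 0.738, 2.89, 0.43 and 2.81, and in GRP2/MP3 0.496, 3.2, 0.216 and 1.4. GRP3 and PFMP thus lay above NSCs in batches 1, 2 and 4, whereas BNAP/GRP1 and GRP2/MP3 lay below NSCs in batches 1 and 3 and above in batches 2 and 4.

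**Figure D3:**
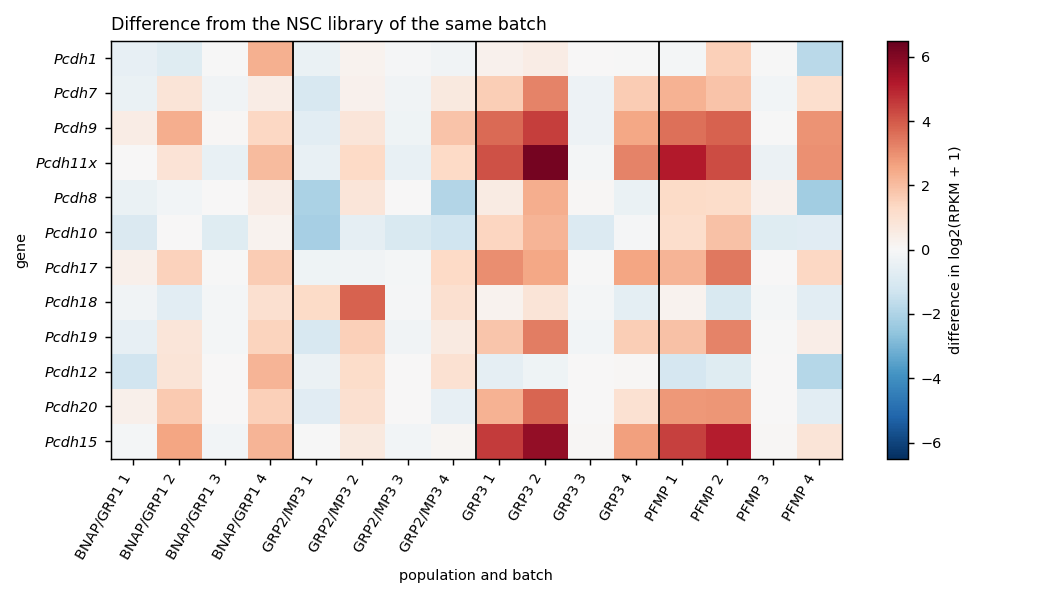
Difference in log2(RPKM + 1) between each progenitor library and the NSC library of the same batch, as colour, for the 12 protocadherins outside the clusters (vertical axis) and the 16 progenitor libraries (horizontal axis). *Pcdh11x*, *Pcdh15* and *Pcdh9* are red in GRP3 and PFMP of batches 1, 2 and 4, and *Pcdh11x* reaches 6.21 in GRP3 of batch 2. Of the 12 genes, 6 are higher than in NSCs in PFMP of batch 4, against 9 in BNAP/GRP1 and 10 in GRP2/MP3 of batch 2 and all 12 in BNAP/GRP1 of batch 4. Of all tested genes, 27.1%, 44.2%, 41% and 75.7% were higher than in NSCs in these libraries, in the same order. Batch 3 is nearly white.

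Outside batch 3, 12 of the 49 tested members had every GRP3 and PFMP library above every NSC library, against 3.62% of all tested genes. They were *Pcdh7*, *Pcdh9*, *Pcdh11x*, *Pcdh15*, *Pcdh17* and *Pcdh19* outside the clusters and *Pcdha4*, *Pcdhb5*, *Pcdhb7*, *Pcdhb17*, *Pcdhb20* and *Pcdhb22* within them. A clustered gene of low level could pass the filter only through libraries where it was high, so its part of the count is a description. *Pcdh9* and *Pcdh11x* had every GRP3 and PFMP library above every library of the other 3 populations, against 0.351% of all tested genes. Over all 4 batches 0 members separated GRP3 (0.746% of all tested genes) or PFMP (0.34%) from NSCs in this way.

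GRP3 and PFMP were set against BNAP/GRP1 and GRP2/MP3 to ask whether the progenitors differ among themselves. Over all batches 0 of 49 members passed in limma, against 0% of all genes in either direction, and 2 were higher at an unadjusted p under 0.05 (*Pcdh11x* and *Pcdh15*; 1.62% of all genes). With batch as a term 1 of 49 passed, *Pcdh11x* (2.67, SE 0.604, limma adjusted p = 0.0415; 0.442% of all genes). Without batch 3, 3 of 49 were higher (0.616% of all genes): *Pcdh11x* by 3.48 (SE 0.572, limma adjusted p = 0.00706), *Pcdh15* by 2.97 (SE 0.655, limma adjusted p = 0.0278) and *Pcdh9* by 2.48 (SE 0.564, limma adjusted p = 0.0324). With batch 3 left out and batch as a term 5 of 49 passed (0.992% of all genes), adding *Pcdh7* (1.82, SE 0.437, limma adjusted p = 0.0357) and the Pcdhg entry ENSMUSG00000023036 (2.50, SE 0.621, limma adjusted p = 0.0424). In batch 4 that entry measured 24.25 RPKM in GRP2/MP3, above the 22.67 RPKM in GRP3.

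The 6 direct comparisons between single progenitor populations called 0 members over all batches, where 0% of all genes were called. They also called 0 members under every alternative, but the share of all genes called there was not recorded, so that 0 is a description only. In limma over all batches, *Pcdh11x* was below an unadjusted p of 0.05 in GRP3 against BNAP/GRP1 (0.612% of all genes higher) and against GRP2/MP3 (0.764%). *Pcdhb13* was lower in PFMP than in BNAP/GRP1 at that level (4.56% of all genes lower).

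The clustered families were described by their summed RPKM, because reads from shared exons cannot be assigned to 1 gene. By GENCODE annotation a median of 53.6% of the exon bases of a Pcdha gene and 44.7% of those of a Pcdhg gene lay in exons of other genes, against 0% for Pcdhb and for the genes outside the clusters. Of the 59 clustered genes 37 passed the filter, 11 Pcdha, 17 Pcdhb and 9 Pcdhg, and the other 22 were not tested. The clusters lie on chromosome 18.

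The Pcdhb genes summed to 44.2, 48.7, 0.543 and 50.5 RPKM in GRP3 and 34.6, 35.6, 0.809 and 36.9 RPKM in PFMP. In NSCs they summed to 6.25, 5.38, 1.16 and 29.4 RPKM, in BNAP/GRP1 to 8.65, 15.6, 0.332 and 159 RPKM and in GRP2/MP3 to 8.06, 9.68, 0.711 and 24.8 RPKM. In batches 1 and 2 GRP3 and PFMP were 5.54 to 9.05 times the NSC library, in batch 4 they were 1.72 and 1.26 times, and in batch 3 they were below it. In batches 1 and 2 the median Pcdhb gene of GRP3 stood at 1.75 and 1.57 RPKM, while the median of all genes was 0.155 and 0.0733 RPKM. In batch 4 the 2 medians were 2.1 and 2.02 RPKM in GRP3, 1.23 and 1.61 RPKM in NSCs and 7.39 and 8.3 RPKM in BNAP/GRP1, so the Pcdhb level of those 3 libraries was near that of the median gene. In PFMP of batch 4 the medians were 0.854 and 0.00791 RPKM.

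**Figure D4:**
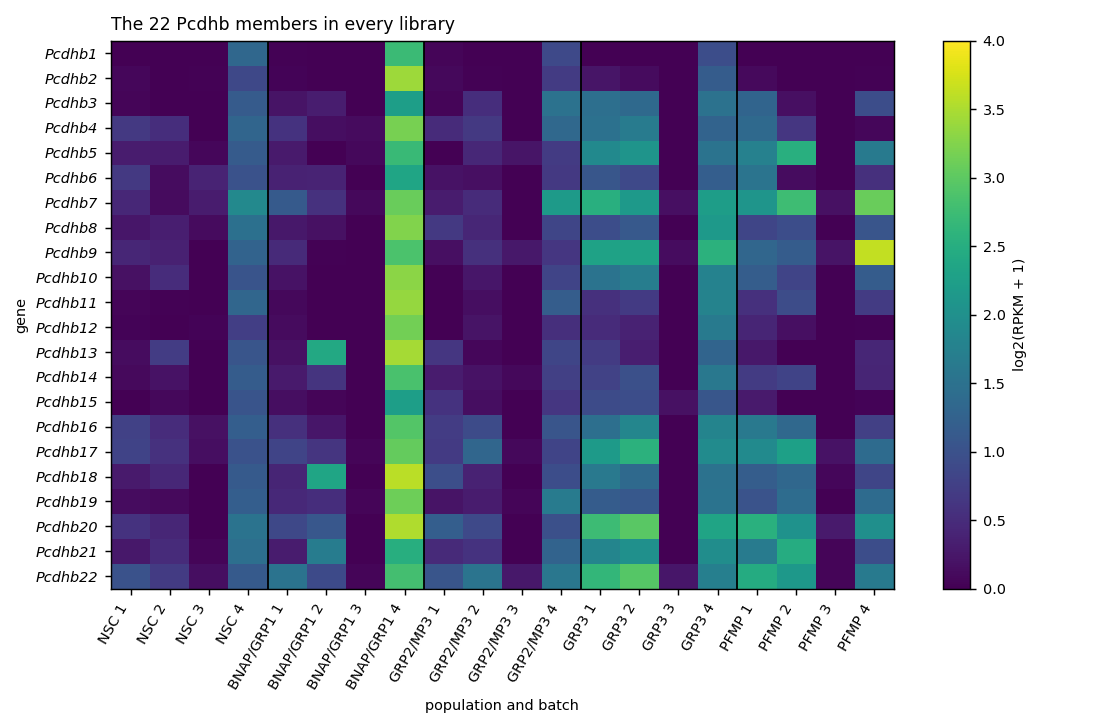
Level of the 22 Pcdhb genes (vertical axis) as log2(RPKM + 1), shown as colour, in each of the 20 libraries (horizontal axis, population and batch). Most genes are brighter in GRP3 and PFMP of batches 1 and 2 than in the other populations of those batches, but *Pcdhb13* (4.31 RPKM) and *Pcdhb18* (4.08 RPKM) are brightest in BNAP/GRP1 in batch 2. Batch 3 is dark throughout, and the BNAP/GRP1 library of batch 4 is bright in all 22 genes.

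*Pcdhb20*, the Pcdhb gene with the highest mean level, measured 5.67, 6.91, 0 and 4.04 RPKM in GRP3 and 0.509, 0.347, 0 and 1.88 RPKM in NSCs (difference 1.38, SE 0.772, limma adjusted p = 1). *Pcdhb22* measured 5.24, 6.73, 0.184 and 2.31 RPKM in GRP3 and 1.00, 0.621, 0.113 and 1.2 RPKM in NSCs (difference 1.14, SE 0.709, limma adjusted p = 1). *Pcdhb7* measured 4.74, 3.5, 0.123 and 3.66 RPKM in GRP3, 3.23, 5.75, 0.134 and 7.47 RPKM in PFMP and 0.367, 0.0837, 0.236 and 2.69 RPKM in NSCs (difference in GRP3 1.08, SE 0.79, limma adjusted p = 1). For all 3 the GRP3 libraries outside batch 3 lay above the NSC libraries, and none passed the test. The untested *Pcdhb1* was listed at 0 in GRP3 of batches 1 to 3 and reached 5.62 RPKM in the BNAP/GRP1 library of batch 4. Of all 22 Pcdhb genes, tested or not, 21, 20, 4 and 20 were higher in GRP3 than in the NSC library of batches 1 to 4, beside 40.1%, 30.4%, 22.3% and 53% of all genes listed. In PFMP the counts were 21, 17, 6 and 8, beside 38.5%, 29.2%, 22.9% and 17.4%. Listed genes at 0 in both libraries count as not higher, which lowers these shares. Over tested genes only, the shares were 52.8%, 42.4%, 31.8% and 56.9% for GRP3 and 47.8%, 42.3%, 32.3% and 27.1% for PFMP.

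The Pcdha genes summed to 27.9, 32, 0.281 and 29.6 RPKM in GRP3, 22.7, 20.1, 0.229 and 28.4 RPKM in PFMP and 5.37, 4.66, 0.325 and 17.5 RPKM in NSCs. A *Pcdha4* entry (ENSMUSG00000104252) measured 15.9, 24.5, 0.274 and 2.69 RPKM in GRP3, 18.1, 10.9, 0 and 3.88 RPKM in PFMP and 2.68, 2.57, 0 and 0.414 RPKM in NSCs (difference in GRP3 1.69, SE 0.974, limma adjusted p = 1). It carried 54% to 79.4% of the family sum in GRP3 and PFMP of batches 1 and 2, and 9.07% and 13.6% in batch 4. Of its annotated transcript with the most sharing, 98.4% of 4129 bases lay in exons of other genes. A *Pcdha11* entry (ENSMUSG00000102206) measured 1.69, 1.38, 0 and 1.73 RPKM in GRP3 and 0.226, 0.277, 0 and 2.51 RPKM in NSCs. The C-type genes, the last variable exons of the cluster, measured 1.19, 1.03, 0 and 1.85 RPKM (*Pcdhac1*) and 1.45, 0.895, 0 and 2.8 RPKM (*Pcdhac2*) in GRP3. The second *Pcdha4* entry, which GENCODE names Gm42416 and whose exon bases are all shared, was listed at 0 in all 20 libraries.

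The Pcdhg genes had the highest sums of the clusters in these populations outside batch 4, at 394, 506, 2.18 and 48.4 RPKM in GRP3, 489, 229.5, 3.91 and 45.6 RPKM in PFMP and 273, 64.2, 12.7 and 53.4 RPKM in NSCs. The sums were 54.05, 31.51, 2.673 and 121.8 RPKM in BNAP/GRP1 and 16.09, 111.8, 3.333 and 36.72 RPKM in GRP2/MP3. In batch 4 BNAP/GRP1 thus had the highest sum. A single entry (ENSMUSG00000023036, named *Pcdhga8* in the data and *Pcdhgc4*, a C-type gene, in GENCODE) carried 82.2% to 99.3% of the sum in every library of batches 1 and 2. It measured 389, 500.1, 0.00553 and 22.7 RPKM in GRP3, 486, 220.5, 2.87 and 36.7 RPKM in PFMP and 271, 62, 10.5 and 25.5 RPKM in NSCs, so batch 1 held a high NSC value as well. The entry measured 51.75, 25.9, 0.02507 and 9.069 RPKM in BNAP/GRP1 and 13.45, 109, 1.802 and 24.25 RPKM in GRP2/MP3. In batch 4 it was thus higher in GRP2/MP3 than in GRP3. Of its annotated transcript with the most sharing, 93.3% of 2272 bases lay in exons of other genes. Whether the entry holds reads of its own first exon or of the shared exons was not tested. Its difference between GRP3 and NSCs was -0.04 (SE 1.8, limma adjusted p = 1).

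The other 21 Pcdhg entries together summed to 5.48, 5.41, 2.18 and 25.8 RPKM in GRP3 and 1.95, 2.15, 2.17 and 27.9 RPKM in NSCs. Among them *Pcdhga12* measured 0.872, 0.741, 0.231 and 2.04 RPKM, and the C-type genes *Pcdhgc3* and *Pcdhgc5* 0, 0.0322, 0.182 and 1.58 RPKM and 2.06, 1.28, 0.121 and 1.54 RPKM, in GRP3. Each of these stayed below 3 RPKM in all GRP3 libraries.

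**Figure D5:**
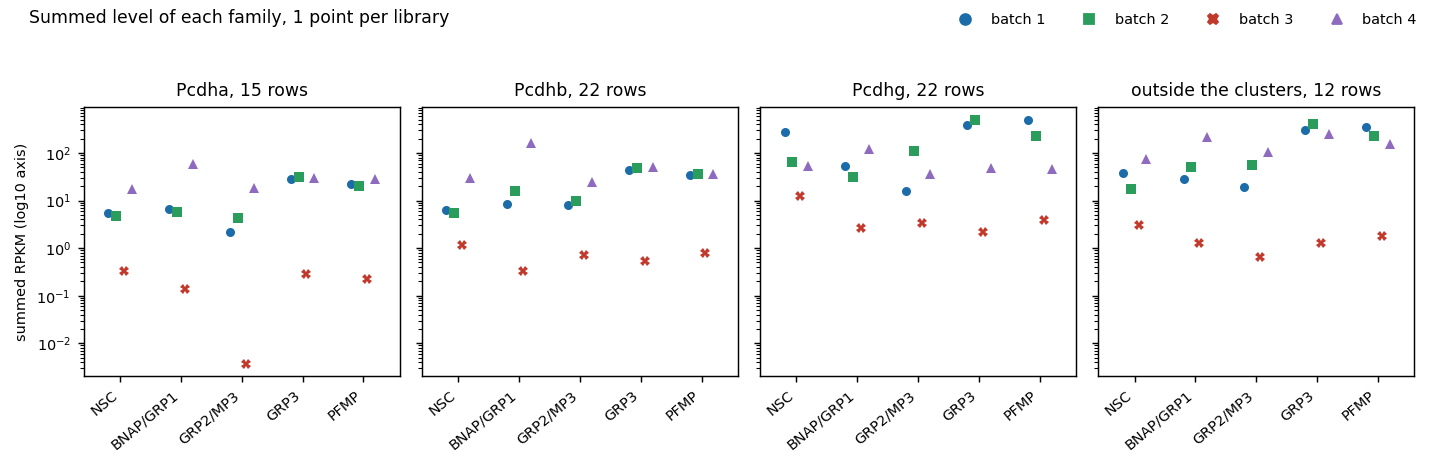
Summed RPKM (log10 axis) of the Pcdha, Pcdhb and Pcdhg genes and of the 12 genes outside the clusters in each of the 20 libraries, by population (horizontal axis) and batch (colour and shape). GRP3 and PFMP exceed NSCs in batches 1 and 2 in all 4 panels, and the batch 3 points are the lowest of each population.

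How many clustered genes were listed above 0 went with the batch in every population. In batch 4, 57 or 58 of the 59 were, in batches 1 and 2 between 28 and 53, and in batch 3 between 14 and 26. Of the 45705 genes listed, 24102 to 39689 were above 0 in batch 4, 22006 to 31999 in batches 1 and 2, and 20116 to 22578 in batch 3. The lowest of these numbers in batch 4 was that of PFMP, where 57 clustered genes were above 0. At 1 RPKM or more the GRP3 libraries held 22, 21, 0 and 51 of the 59, the PFMP libraries 18, 20, 1 and 23 and the NSC libraries 4, 2, 1 and 41. The BNAP/GRP1 libraries held 4, 8, 0 and 58 and the GRP2/MP3 libraries 4, 4, 1 and 15. In batches 1 and 2 GRP3 and PFMP held more clustered genes at that level than the other 3 populations, whereas in batch 4 the BNAP/GRP1 library held most. The share of all genes at that level was not computed, so these counts are descriptions. In batch 4 the median of all genes was 8.3 RPKM in BNAP/GRP1, 2.02 RPKM in GRP3 and 1.61 RPKM in NSCs, so most genes reached 1 RPKM there. It was 0.977 RPKM in GRP2/MP3 and 0.00791 RPKM in PFMP of batch 4, and at most 0.237 RPKM in batches 1 and 2.

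Partners and relatives of the protocadherins were described from lists. Of 17 intracellular partners and processing proteases, 0 passed in limma over all batches in any comparison. At an unadjusted p under 0.05, 2 were higher in GRP3 (1.26% of all genes), 1 in PFMP (0.793%) and 3 in GRP3 and PFMP against the other progenitors (1.62%), and 0 were lower. With batch as a term 1 was higher in the last comparison, *Nckap1* of the WAVE complex (1.52, SE 0.348, limma adjusted p = 0.0415; 0.442% of all genes). *Nckap1* measured 41.1, 42.2, 3.35 and 33.9 RPKM in GRP3, 9.02, 6.51, 2.96 and 8.61 RPKM in BNAP/GRP1 and 17, 11.8, 3.34 and 50.3 RPKM in NSCs, so NSCs exceeded GRP3 in batch 4. *Wasf1*, another WAVE subunit, passed with batch 3 left out and batch as a term (2.11, SE 0.46, limma adjusted p = 0.022; 0.992% of all genes), at 36, 40.1, 0.385 and 25.3 RPKM in GRP3 and 7.1, 4.27, 0.207 and 8.09 RPKM in BNAP/GRP1.

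Of the 8 tested tip-link and Usher complex genes, which act with *Pcdh15* in hair cells, 0 passed in limma over all batches. At an unadjusted p under 0.05 none was higher, while 2 were lower in GRP3 (4.36% of all genes), 2 in PFMP (5.08%), 1 in GRP2/MP3 (4.92%), 2 in the mean of the progenitors (5.96%) and 1 in GRP3 and PFMP against the other progenitors (2.8%). With batch as a term 0 passed in GRP3 and 1 was lower in PFMP than in NSCs, where 2.61% of all genes were called lower. This was *Myo7a*, a myosin (-2.16, SE 0.55, limma adjusted p = 0.0384), at 0.135, 0.405, 7.12 and 0.661 RPKM in PFMP and 5.61, 13.2, 8.53 and 8.59 RPKM in NSCs, so the PFMP libraries outside batch 3 lay below all NSC libraries.

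Of 14 tested cadherins outside the protocadherins (*Cdh* genes), 0 passed in limma over all batches. At an unadjusted p under 0.05, 1 was higher in GRP3 (1.26% of all genes) and 1 lower in PFMP (5.08%). With batch as a term *Cdh13* was higher in GRP3 and PFMP than in the other progenitors (1.86, SE 0.393, limma adjusted p = 0.0377; 0.442% of all genes). It measured 29.7, 26.4, 0.0131 and 77.3 RPKM in GRP3, 3.31, 4.49, 0.0935 and 25.2 RPKM in BNAP/GRP1 and 2.51, 2.87, 0.37 and 24.1 RPKM in NSCs, and in each batch but the third GRP3 was the higher. With batch 3 left out and batch as a term, *Cdh13* and *Cdh20* were also higher in GRP3 than in NSCs (2.53, SE 0.574, limma adjusted p = 0.0275 and 2.61, SE 0.652, limma adjusted p = 0.0477; 0.525% of all genes). In the same fit *Cdh13* was higher in PFMP than in NSCs (2.48, SE 0.574, limma adjusted p = 0.0292; 0.398% of all genes), at 26.4, 32.3, 0.531 and 64.1 RPKM in PFMP. Of the 20 tested regulators of the clustered genes (CTCF, cohesin, DNA and histone methyltransferases and others), the 6 tested atypical cadherins and the 3 tested neighbours of the clusters, 0 passed in limma over all batches or with batch as a term. At an unadjusted p under 0.05 over all batches, 0 regulators were found in either direction, 1 atypical cadherin was lower in PFMP (5.08% of all genes) and 1 neighbour was lower in BNAP/GRP1 (4.03%).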

How the data were processed

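RNA of the sorted cells was amplified as polyA aRNA and sequenced on a NextSeq500. The submitters' processing notes name FastQC 0.11.9, cutadapt 3.4, STAR 2.6.1, Salmon 1.9.0, DESeq2 1.26.0 and GRCm38. The authors deposited RPKM values for 45705 genes, and the gene lengths, annotation and read totals behind them are not given in the sources used here. Read totals could not be recovered from the low values, so the depth is unknown. The study excluded 2 experiments as low quality. A further 26 columns held no values.

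Values were analysed as log2(RPKM + 1) with limma 3.58.1 in R 4.3.3, with Benjamini-Hochberg adjustment over the 27614 genes that reached 1 RPKM in 4 or more libraries, 1 mean per population and a trended prior. This scale understates changes of low genes. The labels number the batches, and the numbers were taken to pair the libraries. Deviations from population means correlated within batches 1 to 4 (median 0.34, 0.26, 0.77 and 0.58, lowest 0.034). Between batches the median was -0.25. Each population mean was taken over 1 library per batch, which by itself pushes correlations between batches below 0, so that value cannot speak for the pairing. A fit with batch as a term is given where it changed a call. Alternatives changed the pseudocount, filter, scaling, prior, populations, libraries and batches. The fit was tested on simulated data. Exon sharing was computed from the GENCODE annotation of GRCm38, and promoter windows were taken from RefSeq.

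The members, lists and tests were chosen with earlier results of these data known. The text names every member outside the clusters, the 3 highest genes of each clustered family, the C-type genes, members passing over all batches or with batch as a term, and up to 3 genes per list. *Pcdhb1*, *Pcdhb5*, *Pcdhb13*, *Pcdhb17* and *Pcdhb18* were named after their values were seen.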

Additional observations from a re-analysis of the deposited data

Results flagged for a closer look

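Groups of 4 libraries were examined, 1 for each population and each chosen gene or family sum. The chosen genes were the 12 outside the clusters, the leading Pcdha and Pcdhg entries, *Pcdhb7*, *Pcdhb20* and *Pcdhb22*. The sums were those of the Pcdha, Pcdhb and Pcdhg genes and of the genes outside the clusters. Other genes described above were not examined in this way. Of 105 groups, 19 held a library far from the other 3 by the ratio of its gap to the range. The cutoff for this ratio assumes a normal spread, which RPKM need not have, and the groups share libraries. No rate by chance can therefore be set beside the 19. The BNAP/GRP1 library of batch 4 was high for *Pcdhb20* (10.5 RPKM, next 1.12), *Pcdhb7* (7.5 RPKM), *Pcdh1* (22.3 RPKM, next 0.239), *Pcdh12* (16.7 RPKM), *Pcdh18* (9.93 RPKM) and *Pcdh19* (16.2 RPKM), and for the Pcdha and Pcdhb sums (57.5 and 158.9 RPKM). Its median over all genes was 8.30 RPKM. The GRP2/MP3 library of batch 4 was high for *Pcdhb7* (3.52 RPKM), *Pcdh17* (6.48 RPKM), *Pcdh7* (13.8 RPKM) and *Pcdh9* (29.2 RPKM, next 3.74).

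*Pcdhb7* was high in the NSC library of batch 4 (2.69 RPKM) and *Pcdh1* in the PFMP library of batch 2 (3.95 RPKM). Low libraries were those of batch 3: GRP3 for *Pcdh18* (0 RPKM), *Pcdh19* (0.0455 RPKM) and the Pcdha and Pcdhb sums (0.281 and 0.544 RPKM), and PFMP for the Pcdhb sum (0.809 RPKM, next 34.7). The OPC markers summed to 13.8 RPKM in that GRP3 library and 14.7 RPKM in that PFMP library. The part of library quality or of other cell types in these values was not tested.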

How the results depend on the processing

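Over all batches no member passed in any comparison, where at most 0.0217% of all genes were called higher and 1.96% lower. The count also stayed at 0 with every single library left out and with another pseudocount, filter, scaling or prior. It stayed at 0 with only the compared populations fitted as well. The share of all genes called in these alternatives was not recorded, so those counts of 0 are descriptions only. With batch as a term (the pairing by batch number) the counts became 2 in GRP3 and 1 in GRP3 and PFMP against BNAP/GRP1 and GRP2/MP3; the block changed no other count of members. With batch 3 left out they became 3 in GRP3, 2 in PFMP, 1 in the mean of the 4 progenitors and 3 among the progenitors, and with batch 3 left out and a batch term 3, 2, 2 and 5. Adjusted p over all settings ran from 0.00568 to 1 for *Pcdh11x*, 0.0152 to 1 for *Pcdh15* and 0.00855 to 1 for *Pcdh9* in GRP3.

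Directions that reversed were of differences of at most 0.45 over all batches, and the cause was not tested. *Pcdh18* in GRP3 turned from 0.06 to -0.056 with a pseudocount of 0.1, -0.038 with median-of-ratios scaling, -0.18 with quantile normalization and -0.19 without batch 2. *Pcdh8* in PFMP turned to -0.27 without batch 1 and -0.24 without batch 2, and *Pcdh10* in PFMP to -0.14 without batch 2. *Pcdh1* in PFMP turned to 0.093 with quantile normalization and 0.46 without batch 4. The leading Pcdhg entry turned in GRP3 to 0.39 with quantile normalization and 1.12 without batch 3, with or without a batch term, and in PFMP to -0.074 without batch 2. With 1 library left out at a time, the range crossed 0 in GRP3 for *Pcdh12* (-0.59 to 0.084), *Pcdh18* (-0.31 to 0.51), *Pcdh1* (-0.14 to 0.61) and the Pcdhg entry (-1.19 to 1.80), in PFMP for *Pcdh8* (-0.50 to 0.62), *Pcdh10* (-0.28 to 1.41), *Pcdh1* (-0.56 to 0.32) and the Pcdhg entry (-0.59 to 1.74), and in GRP2/MP3 for *Pcdh12* (-0.019 to 0.95). Quantile normalization moved the median of all genes against NSCs from 0.38 to 0.09 in BNAP/GRP1 and from -0.20 to 0.07 in PFMP, while the median of the 12 genes outside the clusters in GRP3 and PFMP went from 1.59 and 1.26 to 1.63 and 1.43.

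The mean number of clustered genes detected above 0 per library fell when 1 RPKM was required, to 23.5 for GRP3, 15.5 for PFMP, 12 for NSCs, 17.5 for BNAP/GRP1 and 6 for GRP2/MP3. At 5 RPKM it was 2.25, 2.25, 1.25, 9.25 and 1 in the same order. Single libraries decided several of these means, an alternative chosen after seeing the data. Without batch 4 the BNAP/GRP1 mean was 4 at 1 RPKM and 1 at 5 RPKM, and at 1 RPKM the means of NSCs, GRP2/MP3 and GRP3 were 2.33, 3 and 14.3. Mean family sums did likewise. Without batch 4, Pcdhb went from 45.9 to 8.2 RPKM in BNAP/GRP1, 10.5 to 4.27 in NSCs and 10.8 to 6.15 in GRP2/MP3, and Pcdha from 17.5 to 4.19, 6.97 to 3.45 and 6.24 to 2.15. Pcdhg went from 100.8 to 43.4 RPKM in NSCs and 192 to 93 in PFMP without batch 1, from 237.6 to 148.3 in GRP3 and 42 to 18.7 in GRP2/MP3 without batch 2, and from 52.5 to 29.4 in BNAP/GRP1 without batch 4. Median-of-ratios scaling lowered the BNAP/GRP1 Pcdhb mean to 30.3 RPKM. Each p-value of a fit without a batch term was set against the spread between libraries within populations, pooled over the populations. That spread includes differences between batches. With batch as a term the batch means were removed, and the p-value was set against the spread that remained. The cells of each library came from pooled litters. Because the depth is unknown, no limit can be set for values near 0.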
